A study of Mus musculus with 12 samples.

Results

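The 41 genes described here encode the machinery that copies DNA in S phase and the enzymes and regulators that feed it. They were taken by name from the 32774 gene identifiers measured by poly-A RNA sequencing in mouse tissue. All 41 had a row. The anomaly animals were C57BL/6 mice of genotype VEC-Cre, SB Transposase and onc3, and their tissue was an adipose vascular anomaly, a vessel-rich lesion in fat. The control animals were C57BL/6 mice that carried SB Transposase and onc3 without Cre, and their tissue was normal adipose. VEC-Cre is driven by the promoter of Cdh5, the gene of the endothelial cadherin, so recombination is directed to endothelial cells, whereas the whole dissected lesion was sequenced. SB Transposase is the Sleeping Beauty enzyme that moves transposons such as onc3 within the genome, and animals of both groups carried both elements. Ages are not given in the labels. There were 8 anomaly libraries from 7 animals, since M566 gave 2 pieces, titled leg and arm, whose log2 values were averaged, and 4 control libraries from 4 animals. The design question was how the transcripts of the lesions differ from those of control fat.

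Replication starts when the origin recognition complex, with CDC6 and CDT1, loads the ring-shaped MCM helicase onto DNA in G1. In S phase CDC45 and the GINS complex join MCM to form the active helicase, primase and DNA polymerase alpha lay down short primers, and polymerases delta and epsilon extend them with the sliding clamp PCNA, which the RFC complex loads. Ribonucleotide reductase and thymidylate enzymes supply the nucleotides, and transcription factors of the E2F family switch many of these genes on as cells enter S phase. Mature fat cells do not divide, and most endothelial cells of normal adult tissue are quiescent.

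The values are log2 CPM, the log2 of a gene's reads scaled to a common library size, as the authors deposited them. Library totals lay between 10337258 and 33980694 recovered reads, except in anomaly animal M580, where they came to 953994. There 1 read was worth 0.742 CPM, and the 41 genes held between 2 and 46 reads each. Despite its depth, M580 had a read in 24340 genes, against 24324 in 18f with 29763059 recovered reads. The cause was not tested, and the library may differ in more than depth. The adipocyte markers, which define the labelled tissue, were lower in the anomalies for 10 of 10 genes, with a summed level of 1240 to 21908 CPM in anomaly animals and 21660 to 64030 CPM in control animals. Endothelial markers were higher for 5 of 10 genes and summed to 1647 to 5638 CPM in anomaly animals and 1319 to 2512 CPM in control animals. Macrophage markers were higher for 4 of 10 genes, with 524 to 3845 CPM in anomaly animals and 489 to 1049 CPM in control animals, and T cell markers for 5 of 8, with 42.1 to 160 CPM in anomaly animals and 10.2 to 47.4 CPM in control animals. Over all genes tested, 15.3% were called higher and 23.2% lower. Pericyte and smooth muscle markers were higher for 2 of 8 genes, and fibroblast markers were higher for 1 and lower for 1 of 8. B and plasma cell markers were higher for 1 of 7 tested genes. They summed to 9.98 to 846 CPM in anomaly animals and 11.2 to 132 CPM in control animals. Of 2 tested germinal centre genes 1 was higher and 1 lower, and of 5 tested skeletal muscle genes none was called. No listed marker was at 0 in every library of a group. In tissue of mixed cells, a higher share of dividing cells and more RNA per cell cannot be told apart, and the part of these marker shifts in the results below was not tested. Lists of skin, gland and erythroid precursor cells, some of which divide, had no gene called in either direction but differed widely between animals. Skin markers summed to 5.09 to 8936 CPM in anomaly animals, highest in M566 and F578, and to 6.77 to 1048 CPM in control animals. Gland markers summed to 5.83 to 1317 CPM in anomaly animals, highest in M605 and M566, and to 1.56 to 1210 CPM in control animals. F539 was the highest control in both lists, while the other controls reached at most 15.3 CPM for skin and 3.53 CPM for gland. Erythroid precursor markers summed to 410 to 7045 CPM in anomaly animals, highest in M580 and F578, and to 146 to 584 CPM in control animals. That list includes alpha and beta globin genes, so its sum does not separate precursors from blood in the tissue. One of the 2 header lines of the table gives animal M605 a control name. The other header line and its labels call it an anomaly, and it was kept with the anomalies.

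Most of the replication genes were higher in the anomalies, and no member was called lower. Of 39 members whose mean over animals reached 1 log2 CPM, 22 rose at a limma adjusted p under 0.05, none fell and 17 did not pass the test. Over all 12955 genes tested, 15.3% were called higher and 23.2% lower. The fold changes were positive for 36 and negative for 3 of the 39 members. Their median log2 fold change was 0.71, and the median of all genes tested was -0.10. Fen1 and Orc1 lay under the filter. With no filter on low values, 16 of the 41 members rose and none fell, and the median was 0.74, while 6.59% of all 32774 genes were called higher and 8.43% lower. In 18 of the 39 tested members every anomaly animal stood above every control animal, which 8.30% of all tested genes did. E2f8 had a control mean of -0.06 log2 CPM and so was tested through its anomaly values.

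**Figure D1:**
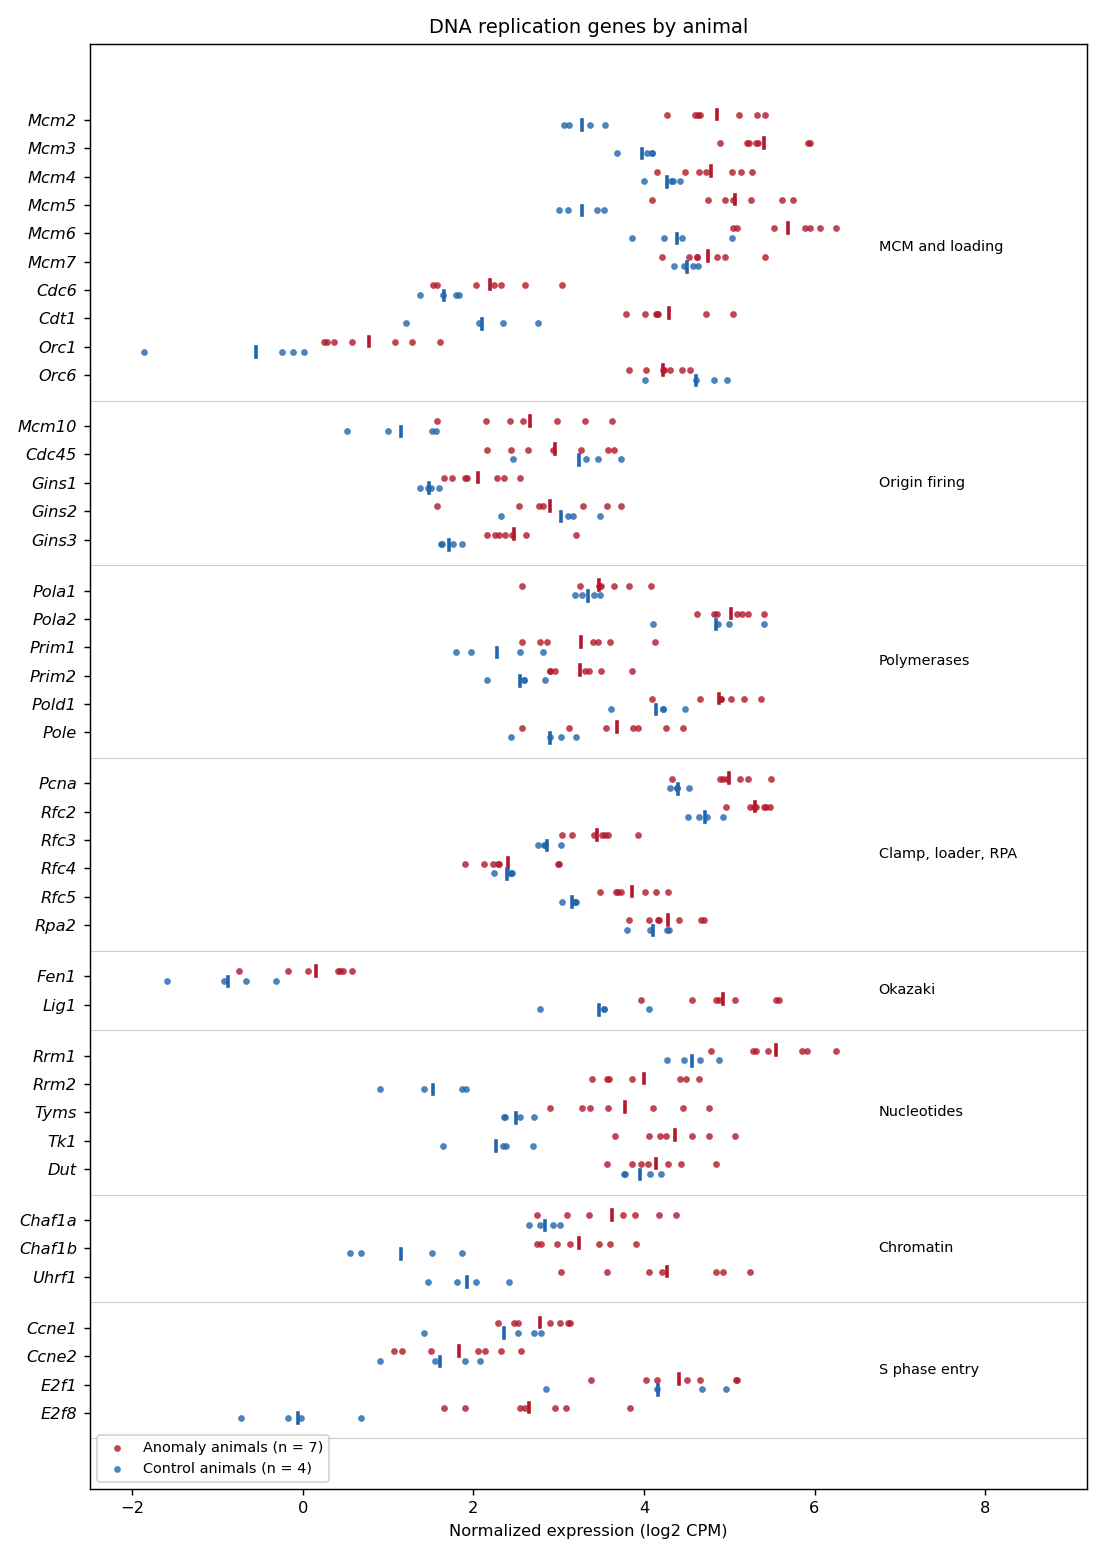
Deposited log2 CPM of the 41 replication genes, with 1 point per animal, anomaly animals (red, n = 7) drawn above control animals (blue, n = 4) and vertical ticks at the group means. Genes run down the page by role, and in 18 of the 39 tested members, with Cdt1, Rrm2 and Chaf1b among them, the red points lie wholly to the right of the blue ones.

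Scaling moved the counts but no direction among the 22. Both other scalings raised the median of all genes, from -0.10 to 0.33 with library totals and to -0.04 with median ratios. A loss of a positive sign was therefore not put to a test by them. When reads were scaled by library totals alone, the median of all genes shifted by 0.43 on the log2 scale, 35.2% of all genes were called higher and 12.1% lower, and 33 of the 39 members rose with a median of 1.13. Between the groups, 9 members kept their call and their direction in each alternative that gave them a value, namely Mcm2, Mcm3, Mcm5, Cdt1, Rrm2, Tk1, Chaf1b, Uhrf1 and E2f8. The share of all genes that did so was not computed, so this stability cannot be called particular to the members. Leaving out 1 animal gave 16 to 25 members called, the fewest without control M602 and the most without M580. Over all genes, 1205 of 13013 were called higher without M602 and 1949 of 12915 without M580.

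**Figure D2:**
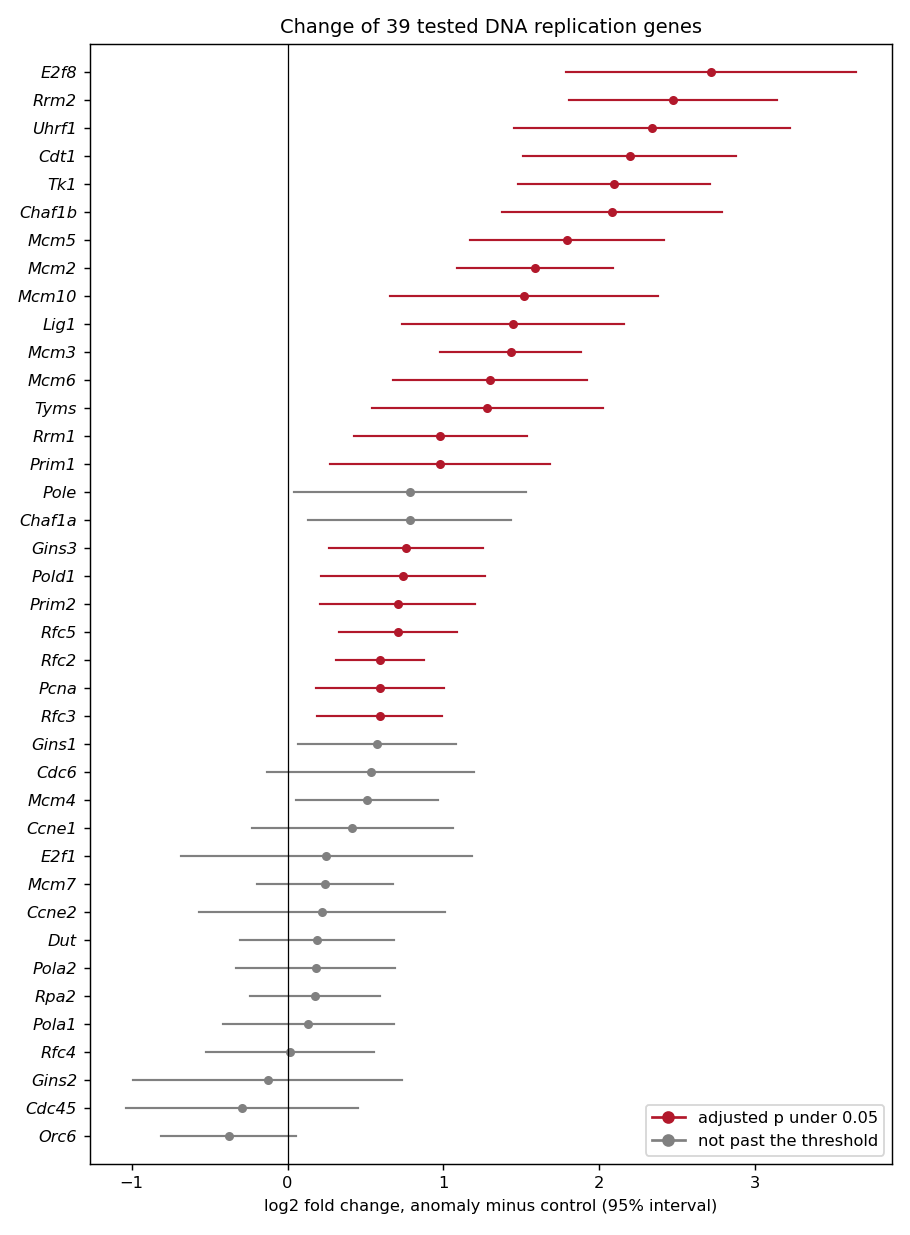
Log2 fold change (anomaly minus control) of the 39 tested replication genes, with 95% intervals from limma, ordered by size. Red marks the 22 genes past an adjusted p of 0.05, which run from Rfc3 at 0.59 to E2f8 at 2.72, and grey marks the 17 others.

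Sequences around the RefSeq transcript start are shown for 4 members, because motifs for E2F factors are a known feature of replication gene promoters. The 4 also differ in how they moved. Mcm5, Mcm6 and Rrm2 rose, and Mcm7 did not pass the test. Each window runs from 250 bases before to 50 bases after the RefSeq transcript start on GRCm38.p6, read 5′ to 3′ on the gene's own strand. Capitals mark the letters TTTCCCGC, TTTGGCGC or TTTCGCGC on either strand. TTTCGCGC and TTTGGCGC can share letters on opposite strands, as in the 12-letter capital run of Mcm5. The Mcm5 window is chr8:75109259-75109558 on the plus strand, the Mcm6 window chr1:128359656-128359955 on the minus strand, the Mcm7 window chr5:138171834-138172133 on the minus strand and the Rrm2 window chr12:24708004-24708303 on the plus strand.
Mcm5: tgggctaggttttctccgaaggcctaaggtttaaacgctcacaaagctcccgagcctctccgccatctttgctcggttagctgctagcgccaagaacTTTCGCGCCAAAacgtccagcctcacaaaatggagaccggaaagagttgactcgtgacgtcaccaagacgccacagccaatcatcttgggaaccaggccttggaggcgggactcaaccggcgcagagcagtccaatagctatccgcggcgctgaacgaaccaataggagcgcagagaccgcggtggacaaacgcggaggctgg
Mcm6: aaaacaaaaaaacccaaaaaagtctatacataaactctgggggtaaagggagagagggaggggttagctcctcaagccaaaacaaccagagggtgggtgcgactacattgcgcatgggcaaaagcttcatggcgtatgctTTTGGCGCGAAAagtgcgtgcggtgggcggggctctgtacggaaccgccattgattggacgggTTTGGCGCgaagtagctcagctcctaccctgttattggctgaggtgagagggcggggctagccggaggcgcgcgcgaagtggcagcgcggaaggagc
Mcm7: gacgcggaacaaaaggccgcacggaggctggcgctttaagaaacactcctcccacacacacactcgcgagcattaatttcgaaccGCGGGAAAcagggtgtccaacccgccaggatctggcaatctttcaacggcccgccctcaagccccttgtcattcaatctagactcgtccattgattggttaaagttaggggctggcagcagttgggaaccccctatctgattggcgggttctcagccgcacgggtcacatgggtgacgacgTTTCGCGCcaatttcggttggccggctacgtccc
Rrm2: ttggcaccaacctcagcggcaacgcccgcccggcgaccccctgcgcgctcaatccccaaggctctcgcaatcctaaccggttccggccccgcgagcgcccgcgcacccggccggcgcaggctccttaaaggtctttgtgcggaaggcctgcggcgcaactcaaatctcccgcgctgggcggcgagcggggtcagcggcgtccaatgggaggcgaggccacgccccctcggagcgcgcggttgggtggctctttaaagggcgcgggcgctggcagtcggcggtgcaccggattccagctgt

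A window was found for 34 of the 41 members, and not for Mcm4, Gins1, Gins2, Prim2, Pole, Rfc2 and Ccne2. At least 1 of the 3 E2F-type strings stood in 11 of the 34 windows (32.4%), and in 515 of 27025 windows of the same length over all genes (1.91%). The 11 were Mcm3, Mcm5, Mcm6, Cdt1, Gins3, Pold1 and Rfc3 among the members that rose, Mcm7, Cdc6 and Pola1 among those that did not pass, and Orc1. The share was 7 of 20 windows for members that rose and 3 of 12 for members that did not pass. The windows of Mcm7, Cdc6, Dut and E2f1, which did not pass, lie wholly inside the gene spans of the GENCODE annotation. For Mcm7, on the minus strand, that span reaches 138172422. These shares therefore compare unlike regions. The string CCAAT, on either strand, stood in 20 of the 34 windows (58.8%) against 37.9% of all windows, and TTTGAA, a core found in many mitotic gene promoters, in 5 of 34 (14.7%) against 18.1%. A string match describes the letters of the window and is not a measured binding site.

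Among the 10 genes of the MCM helicase and its loading, 9 were tested and 5 rose, with a median log2 fold change of 1.30. Cdt1, which carries MCM rings to the origin (chromosome 8, 122568015 to 122573554), had its lowest, median and highest anomaly values at 3.79, 4.16 and 5.05 log2 CPM, against 2.76, 2.35, 1.21 and 2.07 log2 CPM in controls F539, M5, M602 and M2. Every anomaly animal lay more than 1 log2 unit above the highest control. Cdt1 rose by 2.19 ± 0.31 on the log2 scale (SE, n = 7 and 4), a 4.58-fold change with a limma adjusted p of 0.00111.

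The 6 subunits of the MCM ring did not move by the same amount. Mcm5 averaged 5.07 ± 0.56 log2 CPM in anomaly animals and 3.27 ± 0.26 log2 CPM in control animals (SD, n = 7 and 4) and rose by 1.79 ± 0.28 (SE, limma adjusted p = 0.0015). Mcm2, Mcm3 and Mcm6 rose by 1.59 ± 0.23, 1.43 ± 0.21 and 1.30 ± 0.28, and in each of them the anomaly animals lay above all controls. For Mcm6 the gap was narrow, with the lowest anomaly, M278, at 5.05 and control F539 at 5.03 log2 CPM. Mcm7 (chromosome 5, 138164583 to 138172422) had its lowest, median and highest anomaly values at 4.21, 4.63 and 5.42 log2 CPM, and its controls stood at 4.47, 4.35, 4.58 and 4.63. The groups overlapped, with M580 below all controls, and the log2 fold change was 0.24 ± 0.20 (95% interval -0.20 to 0.67, limma adjusted p = 0.358). With library totals Mcm7 passed, at 0.67 (limma adjusted p = 0.00966). Of the Mcm7 exon bases, 12.6% are shared with Ap4m1 on the opposite strand, where an unstranded library cannot assign reads to either gene. Whether such reads were left out of the counts or given to a gene was not tested.

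Mcm4 (chromosome 16, 15623897 to 15637400) lay between these. Its lowest, median and highest anomaly values were 4.16, 4.73 and 5.26 log2 CPM, and its controls stood at 4.34, 4.42, 4.0 and 4.32. All anomaly animals but M580 were above all controls, and the log2 fold change was 0.51 ± 0.21 (limma adjusted p = 0.072). Without M580 the change was 0.62 with a limma adjusted p of 0.0215. With all animals kept, Mcm4 also passed under median-ratio scaling (0.57, adjusted p = 0.0284), limma-voom on recovered reads (0.61, adjusted p = 0.0221) and library totals (0.94, adjusted p = 0.00378).

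Within each animal, the log2 ratio of a subunit to Mcm7 does not depend on how libraries are scaled. These pairs were chosen after their values were seen and carry no test. The log2 ratio of Mcm5 to Mcm7 averaged 0.32 ± 0.28 in anomaly animals and -1.24 ± 0.37 in control animals (SD, n = 7 and 4), and that of Mcm2 to Mcm7 averaged 0.11 ± 0.17 in anomaly animals and -1.24 ± 0.32 in control animals. In both pairs each anomaly animal was above every control animal. The ratio of Mcm4 to Mcm7 averaged 0.03 ± 0.17 in anomaly animals and -0.24 ± 0.27 in control animals, and 3 of 7 anomaly animals were above every control. Per kilobase of exon, mean levels in anomalies ran from 4.35 CPM for Mcm2 to 11.7 CPM for Mcm3, a 2.70-fold span, and in controls from 1.40 CPM for Mcm2 to 5.40 CPM for Mcm4, a 3.86-fold span.

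**Figure D3:**
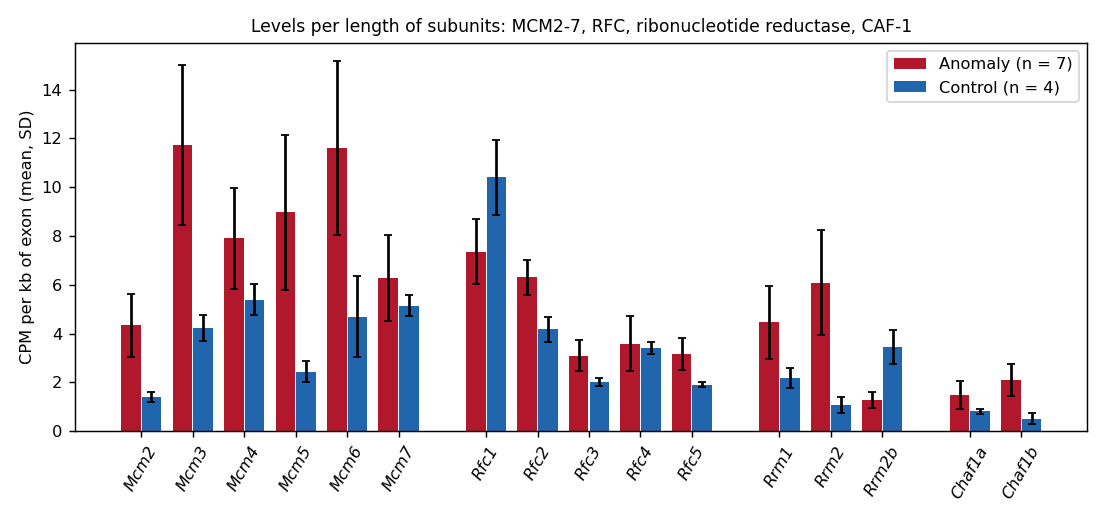
Level per length (CPM per kilobase of exon, mean and SD over animals) of the subunits of the MCM2-7 helicase, the RFC clamp loader, ribonucleotide reductase and CAF-1, with anomaly bars (red, n = 7) left of control bars (blue, n = 4). The Mcm7 and Rfc4 bars are of similar height in both groups, and the bars of Rrm2 and Rrm2b stand in opposite order, at 6.08 CPM per kb in anomalies and 1.08 in controls for Rrm2 and at 1.27 in anomalies and 3.45 in controls for Rrm2b.

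The other loading factors gave no call. Cdc6, the ATPase that recruits CDT1 and MCM (chromosome 11, 98907801 to 98923940), had its lowest, median and highest anomaly values at 1.53, 2.25 and 3.03 log2 CPM, and its controls stood at 1.37, 1.64, 1.83 and 1.80. Of the anomaly animals 5 were above all controls, and the log2 fold change was 0.53 ± 0.30 (limma adjusted p = 0.182). Orc6, the smallest origin recognition subunit (chromosome 8, 85299632 to 85308278), had its lowest, median and highest anomaly values at 3.82, 4.24 and 4.54 log2 CPM, and its controls stood at 4.02, 4.61, 4.97 and 4.82. No anomaly animal was above the highest control, and the log2 fold change was -0.38 ± 0.20 (limma adjusted p = 0.15). Without control F539, the library with raised skin and gland markers, it was -0.57 with a limma adjusted p of 0.0259, and with library totals it was 0.05. The part of those markers was not tested. Orc1, the largest subunit, was scarce, with its lowest, median and highest anomaly values at 0.24, 0.58 and 1.61 log2 CPM and controls at -1.86, -0.25, -0.12 and 0.02. Its groups did not overlap, but with no filter the log2 difference of 1.33 ± 0.45 did not pass limma's test (adjusted p = 0.0673). Gm12743 shares 10.8% of the Orc1 exon bases.

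Of the 5 genes that turn the loaded ring into an active helicase, 2 rose. Mcm10, which activates the helicase at the origin (chromosome 2, 4989714 to 5012791), had its lowest, median and highest anomaly values at 1.57, 2.58 and 3.62 log2 CPM, against 0.52, 1.51, 1.0 and 1.56 in the controls. All anomaly animals were above all controls, though M580, with 4 reads, stood at 1.57 and control M2 at 1.56. Mcm10 rose by 1.52 ± 0.39 (SE, limma adjusted p = 0.0115).

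The GINS subunits among the members, which bind CDC45 and MCM, differed among themselves. Gins3 (chromosome 8, 95633453 to 95645060) had its lowest, median and highest anomaly values at 2.16, 2.37 and 3.20 log2 CPM, and its controls stood at 1.76, 1.87, 1.62 and 1.63. The groups did not overlap, and Gins3 rose by 0.76 ± 0.23 (SE, limma adjusted p = 0.0217), a call lost without M602 (adjusted p = 0.0674) or M2 (adjusted p = 0.0639). Gins1 (chromosome 2, 150905400 to 150931280) had its lowest, median and highest anomaly values at 1.65, 1.93 and 2.55 log2 CPM, and its controls stood at 1.47, 1.37, 1.50 and 1.60. Its groups did not overlap either, but the log2 fold change of 0.57 ± 0.23 did not pass (limma adjusted p = 0.0691). It passed under 5 alternatives, median-ratio scaling, library totals, pieces of M566 kept apart, a plain variance model and limma-voom (adjusted p of 0.00523 to 0.0496). Gins2 (chromosome 8, 120578633 to 120589304) had its lowest, median and highest anomaly values at 1.57, 2.82 and 3.73 log2 CPM, and its controls stood at 2.32, 3.11, 3.48 and 3.17. The groups overlapped across most of their range, and the log2 fold change was -0.13 ± 0.39 (95% interval -0.99 to 0.74, limma adjusted p = 0.818). Gse1 on the opposite strand shares 67.3% of the Gins2 exon bases, which makes this row an unsure measure of Gins2.

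Cdc45, the third part of the active helicase, averaged 2.95 ± 0.57 log2 CPM in anomaly animals and 3.24 ± 0.54 log2 CPM in control animals (SD, n = 7 and 4). No anomaly animal exceeded the highest control, M602 at 3.72, and the log2 fold change of -0.29 ± 0.34 did not pass (limma adjusted p = 0.518). The log2 ratio of Mcm10 to Cdc45, a pair chosen after its values were seen, averaged -0.29 ± 0.19 in anomaly animals and -2.09 ± 0.43 in control animals. All 7 anomaly animals lay above every control in that ratio.

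Among the primase and polymerase genes 3 of 6 rose, and the median log2 fold change was 0.72. Prim2, the large primase subunit (chromosome 1, 33453810 to 33669795), had its lowest, median and highest anomaly values at 2.89, 3.31 and 3.86 log2 CPM, against 2.60, 2.84, 2.59 and 2.16 in the controls. The groups did not overlap, and Prim2 rose by 0.71 ± 0.23 (SE, limma adjusted p = 0.0302). Prim1, the catalytic primase subunit (chromosome 10, 128015168 to 128030037), had its lowest, median and highest anomaly values at 2.57, 3.40 and 4.13 log2 CPM, against 2.81, 1.79, 1.97 and 2.55 in the controls. M580 and M278 fell within the control range, and Prim1 rose by 0.98 ± 0.32 (SE, limma adjusted p = 0.0328). Pold1, the catalytic subunit of polymerase delta (chromosome 7, 44532746 to 44548849), had its lowest, median and highest anomaly values at 4.09, 4.91 and 5.37 log2 CPM, against 4.48, 4.22, 3.62 and 4.22 in the controls. All anomaly animals but M580 were above all controls, and Pold1 rose by 0.74 ± 0.24 (SE, limma adjusted p = 0.0308).

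These 3 calls were close to the threshold. Leaving out 1 animal ended the call of Prim1 without F578, M610, M5, M602 or M2 (limma adjusted p up to 0.104), that of Prim2 without F578, M610, M602 or M2 (up to 0.105), and that of Pold1 without M610, M605, M5, M602 or M2 (up to 0.115).

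Pole, the catalytic subunit of polymerase epsilon (chromosome 5, 110286306 to 110337474), had its lowest, median and highest anomaly values at 2.57, 3.87 and 4.45 log2 CPM, and its controls stood at 2.44, 2.90, 3.21 and 3.03. Of the anomaly animals 5 were above all controls, and the log2 fold change was 0.79 ± 0.34 (limma adjusted p = 0.0866). Without M580 it was 0.97 with a limma adjusted p of 0.0202, and with all animals it passed under median-ratio scaling (adjusted p = 0.0481), limma-voom (0.0315) and library totals (0.00664). Pola1, the catalytic subunit of polymerase alpha (chromosome X, 93304767 to 93632155), had its lowest, median and highest anomaly values at 2.57, 3.49 and 4.08 log2 CPM, and its controls stood at 3.28, 3.42, 3.48 and 3.19. The control values lay inside the anomaly range, and the log2 fold change was 0.13 ± 0.25 (95% interval -0.41 to 0.68, limma adjusted p = 0.691). Pola2, its accessory subunit, had a log2 fold change of 0.18 ± 0.23 (limma adjusted p = 0.557).

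Of the 6 genes of the clamp, its loader and single-strand binding, 4 rose, by 0.59 to 0.71 on the log2 scale. Pcna, the sliding clamp (chromosome 2, 132249162 to 132253314), had its lowest, median and highest anomaly values at 4.33, 4.98 and 5.48 log2 CPM, against 4.30, 4.38, 4.39 and 4.53 in the controls. All anomaly animals but M580 were above all controls. Pcna rose by 0.59 ± 0.19 (SE, limma adjusted p = 0.0286), and the call was lost without M610, F539, M5, M602 or M2, with a limma adjusted p of up to 0.0744.

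Among the loader subunits, Rfc2 (chromosome 5, 134581366 to 134601805) had its lowest, median and highest anomaly values at 4.96, 5.31 and 5.48 log2 CPM, against 4.93, 4.64, 4.52 and 4.74 in the controls. The groups touched without overlap at M580 and F539, and Rfc2 rose by 0.59 ± 0.13 (SE, limma adjusted p = 0.00513). Lat2 shares 15.1% of the Rfc2 exon bases on the opposite strand. Rfc3 (chromosome 5, 151642756 to 151651242) had its lowest, median and highest anomaly values at 3.04, 3.51 and 3.94 log2 CPM, against 2.83, 2.76, 2.84 and 3.03 in the controls. The groups did not overlap, and Rfc3 rose by 0.59 ± 0.18 (SE, limma adjusted p = 0.0255), a call lost without M5 or M602 (adjusted p = 0.0704 in each case). Rfc5 rose by 0.71 ± 0.17 (SE, limma adjusted p = 0.00911), without overlap, and 10.7% of its exon bases are shared with Wsb2.

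Rfc4 (chromosome 16, 23113943 to 23127737) had its lowest, median and highest anomaly values at 1.90, 2.29 and 3.0 log2 CPM, and its controls stood at 2.44, 2.24, 2.45 and 2.43. The controls lay inside the anomaly range, in which 18f and M566 were high, and the log2 fold change was 0.02 ± 0.25 (95% interval -0.52 to 0.56, limma adjusted p = 0.963). Eif4a2 shares 12.7% of its exon bases on the opposite strand. Rpa2, a subunit of the single-strand binding complex, averaged 4.29 ± 0.32 log2 CPM in anomaly animals and 4.11 ± 0.23 log2 CPM in control animals (SD, n = 7 and 4). Its log2 fold change was 0.18 ± 0.19 (limma adjusted p = 0.482).

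Of the 2 genes that finish Okazaki fragments, Lig1, the DNA ligase of S phase (chromosome 7, 13277283 to 13311433), had its lowest, median and highest anomaly values at 3.96, 4.88 and 5.59 log2 CPM, against 4.06, 3.53, 2.78 and 3.53 in the controls. Only M580 fell below a control, F539. Lig1 rose by 1.44 ± 0.32 (SE), a 2.72-fold change with a limma adjusted p of 0.00638. Fen1, the flap endonuclease, had its lowest, median and highest anomaly values at -0.75, 0.42 and 0.58 log2 CPM, and its controls stood at -0.67, -0.31, -0.93 and -1.59. With no filter its log2 difference was 1.02 ± 0.41 (limma adjusted p = 0.119). The overlapping gene Gm10143 covers 84.2% of its exon bases, which makes this row an unsure measure of Fen1.

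The nucleotide supply genes held the member with the smallest p. Rrm2, the subunit of ribonucleotide reductase that is made in S phase (chromosome 12, 24708241 to 24714146), had its lowest, median and highest anomaly values at 3.39, 3.86 and 4.65 log2 CPM, against 1.87, 1.91, 0.91 and 1.41 in the controls. The lowest anomaly, M605, stood more than 1 log2 unit above the highest control. Rrm2 rose by 2.47 ± 0.30 (SE), a 5.54-fold change with a limma adjusted p of 0.000792, and its window above holds none of the E2F-type strings. Rrm1, the large subunit, rose by 0.98 ± 0.25 (SE, limma adjusted p = 0.0119), with M580 within the control range.

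The thymidylate enzymes rose as well. Tk1, the thymidine kinase of S phase, averaged 4.36 ± 0.47 log2 CPM in anomaly animals and 2.27 ± 0.45 log2 CPM in control animals (SD, n = 7 and 4), without overlap, and rose by 2.09 ± 0.28 (SE, limma adjusted p = 0.00095). Tyms, thymidylate synthase, averaged 3.78 ± 0.68 log2 CPM in anomaly animals and 2.50 ± 0.17 log2 CPM in control animals and rose by 1.28 ± 0.34 (SE, limma adjusted p = 0.0127). F578 had the highest Tyms value of all animals, 4.77. Dut, the dUTPase that keeps uracil out of DNA (chromosome 2, 125247190 to 125258608), had its lowest, median and highest anomaly values at 3.57, 4.05 and 4.85 log2 CPM, and its controls stood at 3.77, 3.77, 4.20 and 4.06. The groups overlapped, and the log2 fold change was 0.19 ± 0.22 (95% interval -0.30 to 0.68, limma adjusted p = 0.521).

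A member and a related gene can be read as a pair within each animal, where library scaling cancels. In some pairs the relative serves cells outside S phase, as Rrm2b, Tk2, Lig3 and the mitochondrial polymerase gene Polg do, while Orc2 is a subunit of the same complex as Orc1, Ccne2 is itself a member and E2f7 is an atypical E2F like E2f8. The 8 pairs were compared with a two-sided exact permutation test over the 11 animals, whose 330 assignments allow no p below 0.00303, with Benjamini-Hochberg adjustment over the 8. They were chosen with earlier results of these data known, so the p-values are not independent of that choice. The log2 ratio of Rrm2 to Rrm2b, the reductase subunit used by resting cells, averaged 0.50 ± 0.57 in anomaly animals and -3.43 ± 0.71 in control animals (SD, n = 7 and 4). The difference was 3.93 (exact permutation p = 0.00303, adjusted p = 0.00606, higher in 7 of 7 animals). Rrm2 lay wholly higher in the anomalies, and Rrm2b wholly lower, at most 4.12 log2 CPM there and at least 4.46 log2 CPM in controls. The p of this pair was therefore fixed by the values of its single genes. These ratios are not adjusted for gene length. Per kilobase of exon, Rrm2 averaged 6.08 CPM and Rrm2b 1.27 CPM in anomaly animals. In control animals Rrm2 averaged 1.08 CPM and Rrm2b 3.45 CPM per kilobase. Rrm2b itself fell by 1.46 ± 0.21 on the log2 scale (SE, limma adjusted p = 0.00115).

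The other 7 pairs had smaller differences. The log2 ratio of Tk1 to Tk2, the mitochondrial kinase, averaged -0.78 ± 0.66 in anomaly animals and -3.39 ± 0.67 in control animals, that of Orc1 to Orc2 averaged -3.48 ± 0.51 in anomaly animals and -5.58 ± 0.53 in control animals, and that of Lig1 to Lig3, a repair ligase, averaged 0.36 ± 0.49 in anomaly animals and -1.03 ± 0.44 in control animals. Each of these 3 ratios was higher in all anomaly animals than in any control (exact permutation p = 0.00303, adjusted p = 0.00606). The ratio of E2f8 to its relative E2f7 differed by 1.42 (exact permutation p = 0.00606, adjusted p = 0.0097). The ratios of Pole to Polg (difference 0.72, exact permutation p = 0.0545, adjusted p = 0.0727), Ccne1 to Ccne2 (0.19, exact permutation p = 0.491, adjusted p = 0.561) and E2f1 to E2f4 (-0.17, exact permutation p = 0.73) did not pass.

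**Figure D4:**
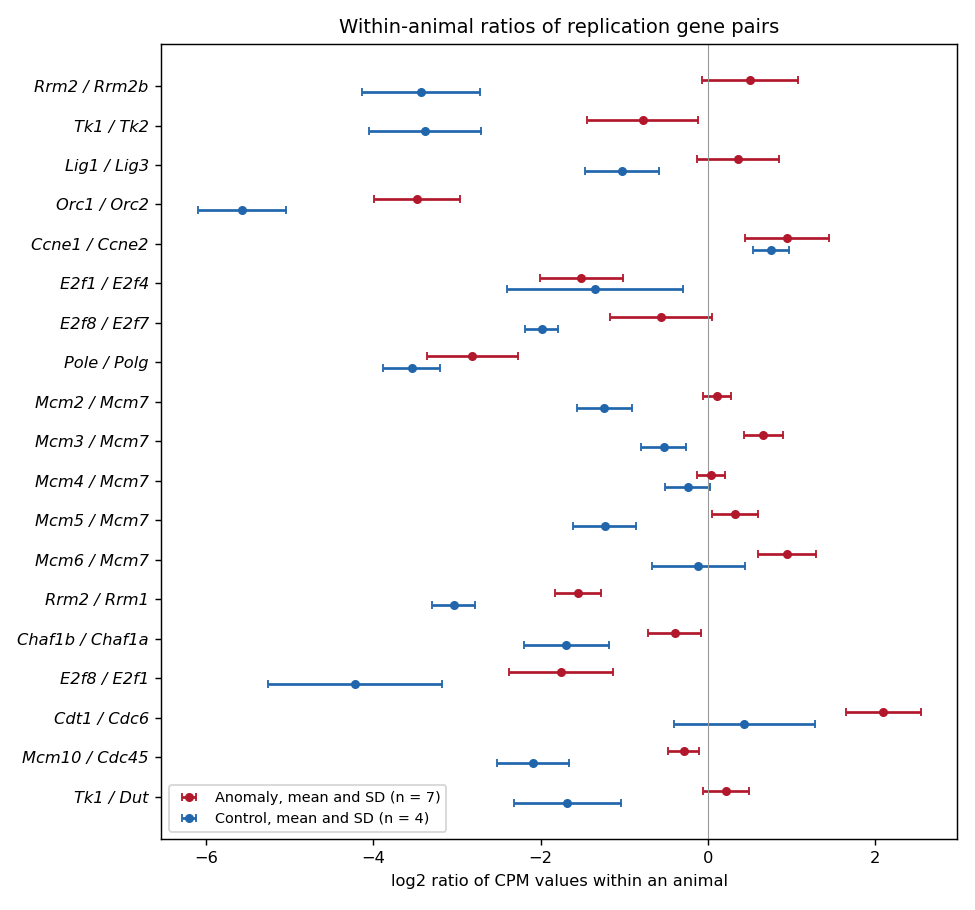
Log2 ratio of 2 genes' CPM within an animal, as mean and SD, with anomaly animals (red, n = 7) drawn above control animals (blue, n = 4). The first 8 pairs were tested, though they were chosen with earlier results of these data known. The 11 below them, from Mcm2 over Mcm7 on, were added after their values were seen and are untested. Rrm2 over Rrm2b shows the widest gap, 3.93, and Ccne1 over Ccne2 and E2f1 over E2f4 show overlapping bars.

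CAF-1, which puts histones onto new DNA, had 1 subunit called. Chaf1b (chromosome 16, 93883901 to 93906115) had its lowest, median and highest anomaly values at 2.74, 3.13 and 3.91 log2 CPM, against 1.87, 1.51, 0.68 and 0.55 in the controls. The groups were clear of each other, and Chaf1b rose by 2.08 ± 0.32 (SE), a 4.23-fold change with a limma adjusted p of 0.00136. Chaf1a (chromosome 17, 56040439 to 56072289) had its lowest, median and highest anomaly values at 2.74, 3.76 and 4.38 log2 CPM, and its controls stood at 2.94, 3.01, 2.79 and 2.65. All anomaly animals but M580 were above all controls, and the log2 fold change was 0.78 ± 0.30 (limma adjusted p = 0.0567). It passed without M580 (0.93, limma adjusted p = 0.0183) or without M278 (0.87, adjusted p = 0.0452). With all animals it passed under median-ratio scaling (adjusted p = 0.0305), with the pieces of M566 kept apart (0.0402), with limma-voom (0.0218) and with library totals (0.00543). Ubxn6 shares 52.5% of the Chaf1a exon bases on the opposite strand. Uhrf1, which brings the maintenance DNA methyltransferase to new strands, averaged 4.27 ± 0.79 log2 CPM in anomaly animals and 1.93 ± 0.40 log2 CPM in control animals, without overlap, and rose by 2.34 ± 0.40 (SE, limma adjusted p = 0.00205).

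Among the regulators of S phase entry 1 of 4 rose. E2f8, an atypical E2F that represses E2F targets late in S phase (chromosome 7, 48866429 to 48881596), had its lowest, median and highest anomaly values at 1.65, 2.61 and 3.83 log2 CPM, against -0.02, 0.68, -0.73 and -0.18 in the controls. The groups did not overlap. E2f8 rose by 2.72 ± 0.42 (SE), a 6.57-fold change with a limma adjusted p of 0.00139, and 11.2% of its exon bases are shared with Gm2788. E2f1, an activator of S phase genes (chromosome 2, 154559407 to 154569892), had its lowest, median and highest anomaly values at 3.38, 4.50 and 5.09 log2 CPM, and its controls stood at 2.85, 4.96, 4.68 and 4.15. The groups overlapped, with control F539 lowest of all animals, and the log2 fold change was 0.25 ± 0.42 (95% interval -0.68 to 1.18, limma adjusted p = 0.663). Without F539 it was -0.19. The E cyclin genes Ccne1 and Ccne2, whose products drive the kinase CDK2 into S phase, had log2 fold changes of 0.41 ± 0.29 (limma adjusted p = 0.282) and 0.22 ± 0.36 (adjusted p = 0.645). Ints8 shares 17.4% of the Ccne2 exon bases.

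The animals differed in level over the whole group of genes. Among the 7 anomaly animals M610 was highest in 17 and 18f in 16 of the 41 members, and M580 was lowest in 29 and M278 in 9. Animal 18f stood above all controls in 38 members, M610 in 37 and M580 in 21. These ranks rest on the deposited scaling and were not repeated with library totals. That scaling set library size at 1.41 times the recovered reads in M580, 1.21 in M278, 1.17 in M610 and 1.09 in 18f, which lowers M580 most. The 2 animals at the top had the extreme adipocyte sums of the anomalies, 1240 CPM in M610, the lowest, and 21908 CPM in 18f, the highest. Among the controls, M602 was lowest in 14 of the 22 members that rose, and F539 was lowest in 11 of the 17 that did not pass and highest in 10 of the 22 that rose. Without both M580 and F539, a setting chosen after seeing the data, 25 members rose, Orc6 fell (-0.50, limma adjusted p = 0.0263) and the median was 0.78. In that setting 4870 of all 12883 genes tested were called, 1882 of them higher.

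The arm piece of M566 was higher than the leg piece in 38 of the 41 members, with a median leg minus arm difference of -0.35 on the log2 scale. Cdc6 differed most, with 1.72 log2 CPM for the leg piece and 2.77 log2 CPM for the arm piece. E2f1 had 3.63 log2 CPM for the leg piece against 4.67 log2 CPM for the arm piece. These are 2 libraries of 1 animal and carry no test. The same count was not made over all genes, so it cannot be called particular to the members. The deposited scaling set library size at 1.24 times the recovered reads in the leg piece and 1.39 in the arm piece. Titles place 5 anomaly animals at a subQ site and 2, 18f and M278, in fat, and all controls in fat. Between subQ-titled and fat-titled anomalies, 0 of the 39 members passed limma's test at an adjusted p under 0.05, and 0 did so at an unadjusted p under 0.05, while 0.0386% of all genes passed. The differences, subQ minus fat, were positive in 11 members and negative in 28, and ran from -0.54 for E2f1 (95% interval -1.80 to 0.72) to 0.49 for Tyms (-0.49 to 1.48). Signs of this difference were not counted over all genes. When fat-titled anomalies alone were set against the controls, 9 of 38 tested members rose and none fell, while 6.45% of all tested genes were called higher and 5.47% lower.

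Other genes of the replication and division programme were read from lists, and their counts stand beside the 15.3% of all genes called higher and 23.2% called lower. Of 30 further replisome and origin genes, 11 rose and 4 fell, with a median log2 fold change of 0.29. The 4 that fell belong to complexes described above and are named after their values were seen. They were Gins4 (-0.78, limma adjusted p = 0.0233), Orc2 (-0.77, adjusted p = 0.0243), Pole4 (-0.57, adjusted p = 0.0497) and Rfc1 (-0.51, adjusted p = 0.0287). Of the 11, 3 had a control mean under the filter of 1 log2 CPM, Clspn among them, and so were tested through their anomaly values. Clspn, the checkpoint adaptor of the fork, averaged 3.07 ± 0.75 log2 CPM in anomaly animals and 0.00 ± 0.52 log2 CPM in control animals and rose by 3.06 ± 0.42 (SE, limma adjusted p = 0.00098). Rnaseh2a, a subunit of the enzyme that removes ribonucleotides from DNA, had a log2 fold change of -0.04 ± 0.21 (limma adjusted p = 0.904). With library totals 17 of the 30 rose and none fell, while 35.2% of all genes were called higher and 12.1% lower. Of 11 further nucleotide genes 2 rose and 2 fell, with Rrm2b the one furthest from no change and Dctpp1, a nucleotide pyrophosphatase, nearest to it at -0.05 ± 0.25. Of 11 further chromatin genes 5 rose and none fell. Hells, a remodeller linked to DNA methylation, led them with a rise of 2.02 ± 0.28 (SE, limma adjusted p = 0.00108), and Slbp, which binds histone mRNA, had a log2 fold change of 0.02 ± 0.17.

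Of the 19 tested members of a list of 20 mitotic genes, 19 rose, with a median log2 fold change of 2.63. The control means of 4 of them, Bub1, Plk1, Ccnb2 and Cenpf, lay under the filter, so these were tested through their anomaly values. With no filter on low values 20 of the 20 rose, with a median of 2.64. Mki67, the proliferation marker, had the largest test statistic, with a rise of 2.94 ± 0.38 (SE, limma adjusted p = 0.000856), and Aurka, a spindle kinase, the smallest, with 1.17 ± 0.37 (adjusted p = 0.0273). Ccnb1 lay under the filter. Of 10 tested replication stress and checkpoint genes 5 rose and 1 fell as deposited, and 6 rose and none fell with library totals, where 35.2% of all genes were called higher. Of the 5 that rose, 4 had a control mean under the filter, Fanca among them. The one that fell was Atr, the kinase that senses stalled forks, named here after its values were seen, at -0.50 ± 0.15 as deposited (SE, limma adjusted p = 0.0252) and -0.07 with library totals (adjusted p = 0.707). Fanca, of the crosslink repair pathway, rose by 1.99 ± 0.35 (SE, limma adjusted p = 0.00228), and Brca2, a gene of recombination repair, had a log2 fold change of 0.04 ± 0.23. A further list held 11 polymerases, ligases and related genes not specific to S phase, the mitochondrial Polg among them. Of these 0 were called higher and 2 lower as deposited, and 2 higher and none lower with library totals. Rev3l, the catalytic subunit of polymerase zeta, fell by 0.60 ± 0.12 on the log2 scale (SE, limma adjusted p = 0.00357), and Polh, a translesion polymerase, had a log2 fold change of -0.03 ± 0.23.

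**Figure D5:**
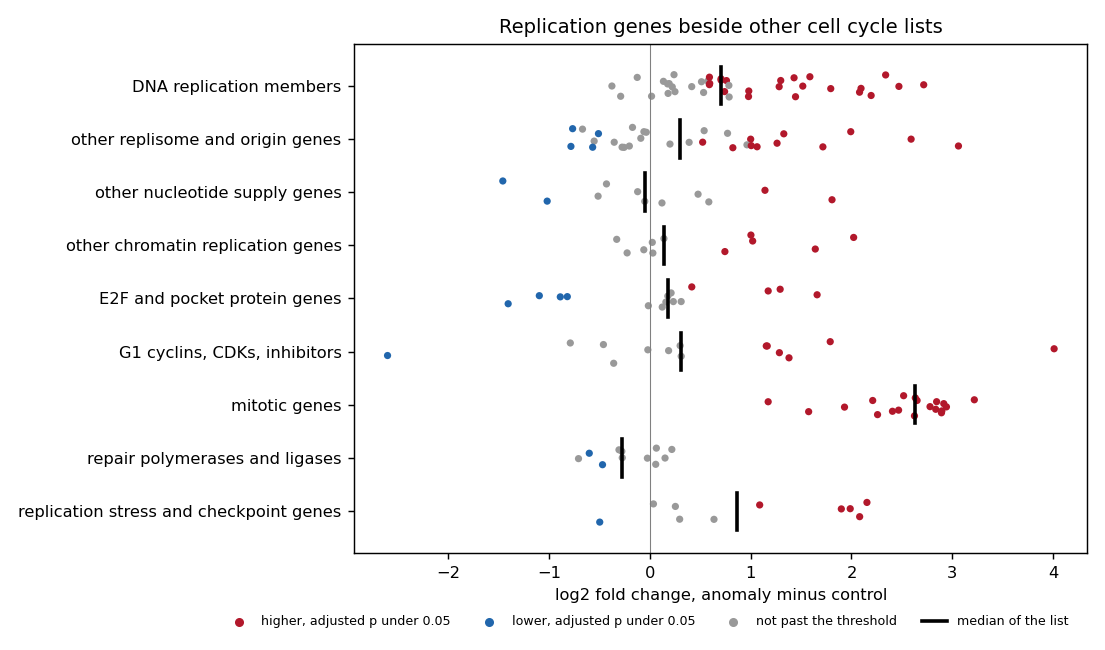
Log2 fold change (anomaly minus control) of each tested gene in the replication group and in 8 other lists, with 1 point per gene, red for higher, blue for lower and grey for genes that did not pass, and a black bar at each list's median. The mitotic genes lie furthest to the right (median 2.63, replication genes 0.71). The list labelled repair polymerases and ligases, which includes the mitochondrial Polg, lies around a median of -0.27.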

How the data were processed

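RNA from whole tissue was sequenced after poly-A selection with an unstranded kit, per the labels' protocols. The submitters' processing notes name STAR, limma, mm10 and GRCm38, with no versions. The authors deposited 1 table of normalized log2 CPM values, with a floor of -6.97, made with a normalization and a prior count that are not given in the sources used here. With the floor subtracted, 100% of values lay within 0.1 of a whole multiple of 1 step per library, read here as recovered reads. Depths speak of counting error alone.

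Values of genes at or above a mean of 1 log2 CPM over 11 animals were fitted with limma 3.58.1 (statmod 1.5.0, R 4.3.3) with a mean trend, robust variances and two-sided tests, adjusted by Benjamini-Hochberg over all 12955 genes at 0.05. Every adjusted p comes from this fit unless another test is named. Fold changes are anomaly minus control on values that include the authors' prior, which understates changes of low genes. Labels name separate animals as replicates. The design text counts 8 anomaly animals, and titles give 7. Symbols and exon overlaps came from GENCODE vM21 on GRCm38, which matched 32671 identifiers. Levels per length are CPM divided by the union of a gene's exons, bases shared with other genes included. Levels of genes with many shared bases are therefore unsure. Exact permutation tests, shares and tables used Python 3.11.15 with SciPy 1.17.1 and pandas 2.3.3. Promoter windows are from RefSeq, GRCm38.p6, with 1 window per gene. The fit was tested on simulated data.

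The members, lists, pairs and the naming rule were chosen with earlier results of these data known. Named with all values were, in each role, the members with the largest and smallest absolute moderated t, and members nearest the threshold among those not past it or losing a call. The 11 pairs from Mcm2 over Mcm7 on were added after their values were seen. Alternatives covered scaling by library totals or median ratios, 2 other filters, a pseudocount of 1 CPM, pieces of M566 kept apart or alone, each animal left out, site subsets, a plain variance model, limma-voom on recovered reads and a threshold of 0.01.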

Additional observations from a re-analysis of the deposited data

Results flagged for a closer look

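Within each group, each member's highest and lowest animal was compared with its neighbour, and a gap wider than Dixon's 95% critical share of the range was listed. Over 82 groups of values 4 were listed, all in control animals, and chance lists about 1 in 20 such groups. Mcm3 was lowest in M602, at 3.68 log2 CPM, with the next control at 4.04 and the highest at 4.10. Rfc5 was also lowest in M602, at 3.04 log2 CPM, with the others between 3.18 and 3.20. Rfc4 was lowest in M5, at 2.24 log2 CPM, with the others between 2.43 and 2.45. Orc1 was lowest in F539, at -1.86 log2 CPM, with the others between -0.25 and 0.02. The gaps for Rfc4 and Rfc5 are small in absolute terms, because the remaining controls lay close together.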

How the results depend on the processing

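Under 25 alternatives the tested members gave 974 values, of which 875 kept their direction and side of the threshold, 51 lost a call, 31 gained one and 17 changed sign. The 22 members called had a positive fold change in each alternative that gave them a value. The count of members called was 9 with fat-titled anomalies only and 13 at a threshold of 0.01, and it lay between 16 and 25 with 1 animal left out. The count of all genes called was 4986, against 1518 with fat-titled anomalies only, 2502 at the threshold of 0.01 and 3028 to 5817 with 1 animal left out, lowest without M602. The median of the members was 1.13 with library totals and 0.64 to 0.77 with 1 animal left out. The 5 genes that differed between subQ-titled and fat-titled anomalies became 0 with the pieces of M566 kept apart, 8 without trend and robust variances, and 0 to 208 with 1 animal left out, highest without M278. No member was among them in any of these fits.

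The members that changed sign did so without passing the test. With library totals Cdc45 came to 0.136, Gins2 to 0.300 and Orc6 to 0.0491. With 1 animal left out, Gins2 lay between -0.361 and 0.0945, Pola2 between -0.0669 and 0.369, Rfc4 between -0.0834 and 0.101, Ccne2 between -0.0119 and 0.379 and E2f1 between -0.189 and 0.515, with the lowest values of Gins2, Pola2, Ccne2 and E2f1 without F539. With fat-titled anomalies only Gins2 came to 0.225 and Ccne2 to -0.00555. Rfc4 came to -0.00751 with the leg piece alone and -0.0692 with subQ-titled anomalies. Without M580 and F539 Pola2 came to -0.0327 and E2f1 to -0.0167. The cause of these changes was not tested. No paired analysis was possible because the labels give no replicate numbers that groups share. The depth of M580 limits low members, and E2f8 could not be fitted with fat-titled anomalies only, where it lay under the filter.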

Other observations

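Of 14 G1 cyclin, kinase and inhibitor genes 6 rose and 1 fell (9 and 1 with library totals). Over all genes tested 15.3% were called higher and 23.2% lower, and 35.2% higher and 12.1% lower with library totals. By the naming rule, Cdk4, a cyclin D kinase, rose by 1.15 ± 0.15 on the log2 scale (SE, limma adjusted p = 0.000856), and Cdkn2b, an inhibitor of it, had a log2 fold change of -0.02 ± 0.33. The inhibitor genes Cdkn2a and Cdkn2c are named here after their values were seen. Cdkn2a ranged from 1.59 to 4.50 log2 CPM in anomaly animals and from -1.14 to -0.12 log2 CPM in control animals, with a log2 fold change of 4.01 ± 0.53 (SE, limma adjusted p = 0.000943). Its control mean lies under the filter. Cdkn2c ranged from 2.89 to 5.52 log2 CPM in anomaly animals and from 6.71 to 7.49 log2 CPM in control animals, and fell by 2.60 ± 0.40 (SE, limma adjusted p = 0.00132). Neither pair of ranges overlapped. Adipocyte markers fell in the same animals, and their part in either change was not tested.

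Of 15 further E2F, dimerisation partner and pocket protein genes 4 rose and 4 fell (9 and 3 with library totals), against the same shares over all genes. Of the 4 that rose, 1 had a control mean under the filter. Rb1, the retinoblastoma gene, ranged from 4.82 to 5.45 log2 CPM in anomaly animals and from 6.26 to 6.67 log2 CPM in control animals, and fell by 1.41 ± 0.14 (SE, limma adjusted p = 0.000554), or by 0.98 with library totals. Lin54, a DNA-binding subunit of the complex that represses cell cycle genes in resting cells, had a log2 fold change of -0.02 ± 0.18 (limma adjusted p = 0.954).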
